A study of Drosophila melanogaster with 8 samples.

Results

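Aminoacyl-tRNA synthetases are the enzymes that join each amino acid to its transfer RNA, and their messenger RNAs were followed here in the larval fat body of Drosophila melanogaster. The members are the genes whose FlyBase symbol is an amino acid code followed by RS, or ends in RS-m, and 33 of the 17471 genes in the expression table fit that rule. Of these, 18 carry no suffix and are called cytosolic, and 15 carry the suffix -m and are called mitochondrial. The rule reads names and uses no expression value. The alpha and beta subunits of the cytosolic phenylalanine enzyme have symbols outside the rule and are given separately.

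Cytosolic synthetases charge the transfer RNAs that ribosomes of the cytosol use. Mitochondrial synthetases are also encoded in the nucleus, are imported, and charge the transfer RNAs that mitochondria make from their own genome, which serve a small set of respiratory chain proteins. The fat body is the larva's store of fat, glycogen and protein and a main producer of secreted protein, and it slows protein synthesis when amino acids run short. In mammals several cytosolic synthetases sit together in a multi-synthetase complex held by scaffold proteins named AIMP.

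RNA sequencing was done on 8 libraries in 4 groups of 2. The groups were fed wild type (OreR), wild type starved for 4 h, larvae homozygous for the CPSF5 allele H11 starved for 16 h, and wild type starved for 16 h. The Cpsf5 protein belongs to cleavage factor I, a complex that takes part in the choice of polyadenylation site. A fed mutant was not analysed here, the mutant's genetic background beyond the allele is not given, and the labels give the stage only as larval, so the mutant differs from OreR by whatever else separates the strains. The labels do not say that the libraries of a group came from separate larvae, so p-values measure only the spread between these libraries, which may be technical.

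Values are TPM, a length-adjusted share of transcripts, divided by a scaling factor for each library (scaled TPM). The depth behind a value is unknown, since TPM does not retain it. Fold changes are log2 of scaled TPM + 1, tested with limma over the 8332 genes with a mean of 1 or more, and a gene is called at a Benjamini-Hochberg adjusted p under 0.05. The + 1 understates the change of low genes, which touches the mitochondrial set most, so ratios of means are given as well. Because levels are per length, they may be compared between genes.

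Library composition moved with the groups. Ribosomal RNA took 5.19% and 6.79% of TPM in fed libraries, 12.6% and 14.0% at 4 h, 4.58% and 5.41% in the mutant, and 48.8% and 31.1% in wild type at 16 h. Without scaling, the log2 fold change of the median gene was -0.53 at 4 h and -0.82 at 16 h against fed, and 0.77 in the mutant against wild type at 16 h, so changes are relative to the median gene. The mutated gene itself, Cpsf5, stood at 3.60 and 3.01 scaled TPM in the mutant and 5.06 and 4.20 in wild type at 16 h (log2 fold change -0.39, SE 0.24, adjusted p = 0.256), and what the allele does to its RNA is not stated, so this level does not check the label. Markers of other tissues were present. Summed salivary gland markers ranged from 23170 to 25296 scaled TPM at 4 h and from 795 to 2615 in fed larvae, and from 801 to 4249 in the mutant and from 14658 to 41231 in wild type at 16 h. Muscle markers summed to between 7.02 and 25.6 at 4 h, 57.6 and 88.8 in the mutant, 24.8 and 33.6 in wild type at 16 h, and in fed larvae between 114 and 175. Fat body markers summed to between 2591 and 3411 in the mutant and between 72664 and 75500 in wild type at 16 h, and between 53000 and 92523 at 4 h and 18777 and 37393 in fed larvae. Of the 10 fat body markers the mutant had 5 called below 16 h wild type (Lsp1alpha, Lsp1beta, Lsp2, Fbp1 and Fbp2) and 4 called above it (Lsp1gamma, Mtp, fat-spondin and Npc2b). Over all tested genes 12.1% were called lower and 21.4% higher in that comparison. The lipophorin precursor apolpp, not called, averaged 2034 ± 426 in the mutant and 1683 ± 330.2 in wild type at 16 h (SD, n = 2).

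In fed larvae every cytosolic synthetase stood above every mitochondrial one. Cytosolic means ran from 12.8 ± 1.54 for GluProRS to 115 ± 12.6 scaled TPM for AspRS (SD, n = 2), with a median over genes of 38.4. Mitochondrial means ran from 0.822 ± 0.0369 for GluRS-m to 8.14 ± 0.101 for PheRS-m, with a median of 2.58. The summed cytosolic level was 731 and 809 in the fed libraries, and the summed mitochondrial level was 54.6 and 48.8.

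**Figure D1:**
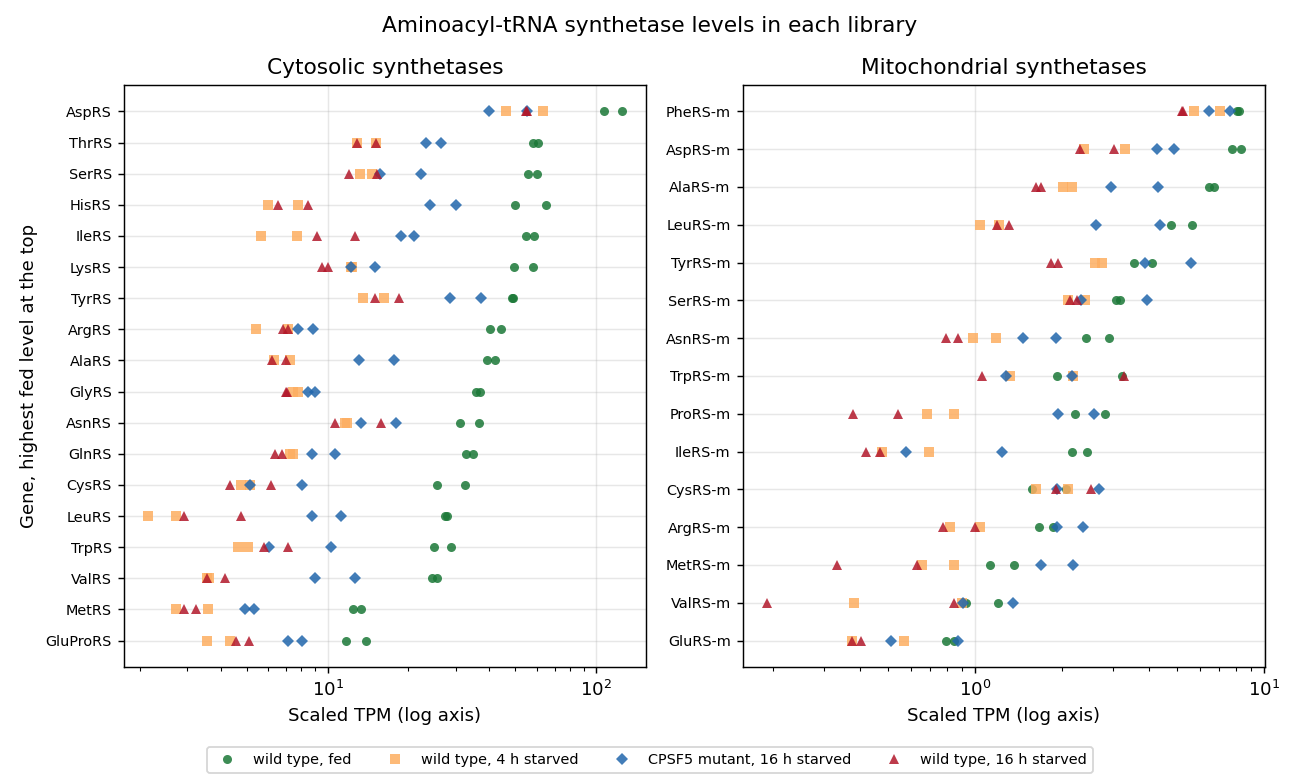
Scaled TPM (log axis) of the 18 cytosolic and 15 mitochondrial synthetases in each of the 8 libraries, 1 point per library and 2 per group. Fed libraries sit to the right of the starved wild-type libraries for every cytosolic gene, and both mutant libraries lie above both wild-type 16 h libraries for 14 of the 18.

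After 4 h of starvation every cytosolic synthetase was lower than in fed larvae. Relative to its own fed mean, the median cytosolic gene stood at 21.3%, from 8.88% for LeuRS to 47.3% for AspRS, while the median of all tested genes was 98.9%. All 18 were called lower, with a median log2 fold change of -2.09, where 26.6% of all tested genes were called lower and 21.1% higher. In the mitochondrial set the median was 57.4% of fed over all 15 genes, from 21.7% for LeuRS-m to 103% for CysRS-m. Of the 13 mitochondrial genes that passed the filter 7 were called lower and 0 higher, with a median log2 fold change of -0.52. With no filter, which keeps all 33 members, 18 and 6 were called, beside 12.3% of genes. Starved libraries lay below fed ones with no overlap in 18 of 18 cytosolic and 13 of 15 mitochondrial genes, beside 39.7% of tested genes.

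LeuRS, IleRS and HisRS had the largest falls of the cytosolic set. LeuRS, which charges leucine, stood at 2.73 and 2.15 scaled TPM at 4 h, against 27.8 and 27.2 in fed larvae (log2 fold change -3.05, SE 0.23, adjusted p = 0.000181). IleRS, for isoleucine, stood at 7.72 and 5.66 at 4 h, against 54.8 and 58.4 in fed larvae (log2 fold change -2.92, SE 0.22, adjusted p = 0.000192). HisRS, for histidine, stood at 7.74 and 6.01 at 4 h, against 49.9 and 64.8 in fed larvae (log2 fold change -2.89, SE 0.23, adjusted p = 0.000241). In all 3 genes the starved libraries lay far below the fed ones, with no overlap.

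AspRS, for aspartate, was the highest member in every group and fell least among cytosolic members. It stood at 45.9 and 63.4 at 4 h, against 106 and 124 in fed larvae (log2 fold change -1.08, SE 0.25, adjusted p = 0.0144), and its call was lost without either fed library. Its gene overlaps antisense genes and an antisense RNA gene on its own strand, and whether strand was used in counting is not given, so its level is uncertain. TyrRS, for tyrosine, stood at 13.6 and 16.1 at 4 h, against 48.8 and 48.6 in fed larvae (log2 fold change -1.65, SE 0.21, adjusted p = 0.00122). AsnRS, for asparagine, stood at 11.8 and 11.6 at 4 h, against 31.0 and 36.7 in fed larvae (log2 fold change -1.45, SE 0.24, adjusted p = 0.00376). These were the cytosolic genes whose starved levels stayed nearest the fed ones, with GluProRS.

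The remaining high cytosolic members fell by like amounts. ThrRS, for threonine, stood at 15.1 and 12.9 at 4 h, against 58.0 and 60.8 in fed larvae (log2 fold change -2.01, SE 0.18, adjusted p = 0.000321). SerRS, for serine, stood at 13.2 and 14.7 at 4 h, against 55.9 and 60.2 in fed larvae (log2 fold change -1.99, SE 0.22, adjusted p = 0.000839). LysRS, for lysine, stood at 12.4 and 12.2 at 4 h, against 49.2 and 58.0 in fed larvae (log2 fold change -2.04, SE 0.17, adjusted p = 0.000283). The other cytosolic members ran from -2.58 for ArgRS to -1.48 for GluProRS, the fused enzyme for glutamate and proline. The 8 members that belong to the multi-synthetase complex in mammals had a median log2 fold change of -2.05 and the other 10 of -2.18, a difference that was not tested.

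In the mitochondrial set 3 of the better expressed genes were called lower. AlaRS-m, for alanine, stood at 2.16 and 2.01 scaled TPM at 4 h, against 6.43 and 6.73 in fed larvae (log2 fold change -1.30, SE 0.16, adjusted p = 0.00122). LeuRS-m stood at 1.21 and 1.04 at 4 h, against 5.62 and 4.78 in fed larvae (log2 fold change -1.54, SE 0.21, adjusted p = 0.00162). AspRS-m stood at 3.30 and 2.38 at 4 h, against 8.31 and 7.77 in fed larvae (log2 fold change -1.24, SE 0.17, adjusted p = 0.00181). Starved and fed libraries did not overlap in these 3 genes.

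PheRS-m, for phenylalanine and the highest mitochondrial member, stood at 5.70 and 7.05 at 4 h, against 8.21 and 8.07 in fed larvae, and was not called (adjusted p = 0.127). TyrRS-m stood at 2.74 and 2.59 at 4 h, against 4.10 and 3.55 in fed larvae (adjusted p = 0.104). SerRS-m stood at 2.40 and 2.10 at 4 h, against 3.18 and 3.08 in fed larvae (adjusted p = 0.198). In these 3 genes the groups did not overlap, but the difference did not pass the test.

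CysRS-m, for cysteine, differed from most of its set in direction. It stood at 2.10 and 1.63 at 4 h, against 2.06 and 1.58 in fed larvae (log2 fold change 0.02, SE 0.20, adjusted p = 0.943), and the groups overlapped, and the sign turned to -0.41 without scaling and -0.29 with scaling over coding genes. TrpRS-m stood at 2.18 and 1.32 at 4 h, against 3.23 and 1.92 in fed larvae (adjusted p = 0.501), with replicates far apart in each group. Of the remaining mitochondrial members AsnRS-m, ProRS-m, ArgRS-m and IleRS-m were called lower, at -0.81, -0.99, -0.52 and -1.06 on the log2 scale, and MetRS-m was not (adjusted p = 0.200). ArgRS-m lost its call without any 1 of 7 libraries, the exception being mutant replicate 1. IleRS-m had a mean of 1 or more only in fed larvae and passed the filter through them, so its call is not independent of the filter. GluRS-m and ValRS-m were under the filter, at 0.567 and 0.377 and 0.903 and 0.381 at 4 h, against 0.848 and 0.796 and 1.20 and 0.929 in fed larvae.

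Other markers moved with the synthetases at 4 h. Muscle markers fell (9 of 9 tested) and 8 of 10 salivary gland markers rose. Over all tested genes 26.6% were called lower and 21.1% higher. Of 8 tested midgut markers 3 fell, and the midgut sum was 0.623 to 0.715 scaled TPM at 4 h and 121 to 209 in fed larvae. Midgut sums were low in starved wild type, so these markers passed the filter largely through the fed and mutant libraries. Muscle sums were also lower in starved wild type than in fed larvae. Neither the midgut nor the muscle count is therefore shown to be independent of the filter. Of 10 fat body markers 3 rose (Lsp2, Fbp1 and Fbp2) and 2 fell (Mtp and fat-spondin). Of 5 tested hemocyte markers 3 rose and 1 fell, with sums of 20.3 to 23.2 at 4 h and 11.0 to 11.6 in fed larvae. The part of these tissues in the falls was not tested, and in bulk tissue fewer cells of a type and less RNA per cell cannot be told apart. Without fed replicate 1, 3 mitochondrial members were called lower, since AsnRS-m, ProRS-m and ArgRS-m lost their calls and IleRS-m fell under the filter, with 12 tested.

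**Figure D2:**
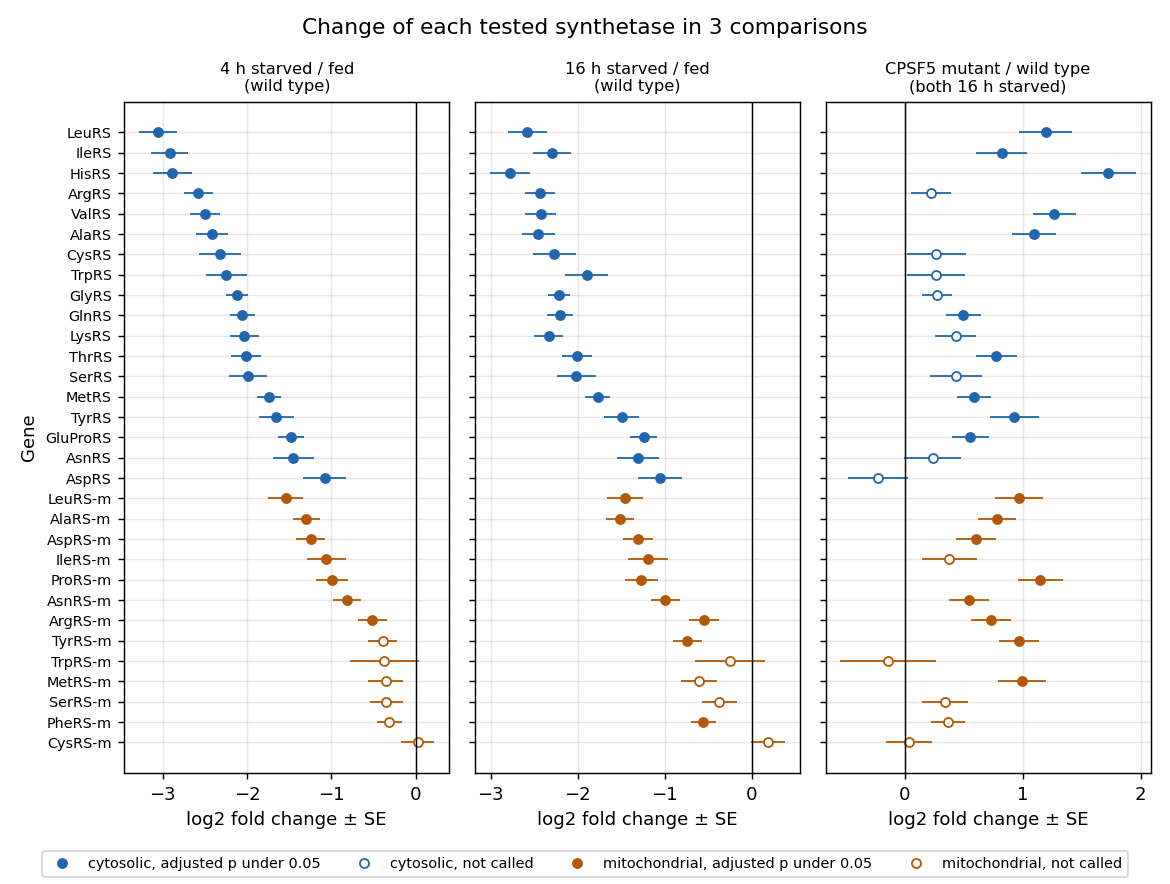
Log2 fold change ± SE (limma) of the 31 tested synthetases in 3 panels (4 h versus fed, 16 h versus fed, and mutant versus wild type, both at 16 h), with filled points called at an adjusted p under 0.05. All 18 cytosolic points lie left of 0 in the first and second panels, and 10 cytosolic and 8 mitochondrial points are called right of 0 in the third.

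The falls were still there at 16 h in wild type. All 18 cytosolic members were called lower than in fed larvae, with a median log2 fold change of -2.21, and 9 of 13 mitochondrial members were, with a median of -0.74, where 27.7% of tested genes were called lower and 21.6% higher. With no filter 18 and 8 were called lower, beside 12.9% of genes. Starved libraries lay below fed ones with no overlap in 18 of 18 and 13 of 15 genes, beside 41.4% of tested genes. Levels relative to fed had a median of 19.4% in the cytosolic set, from 13.0% for HisRS to 47.8% for AspRS, and of 47.3% in the mitochondrial set, from 18.2% for ProRS-m to 122% for CysRS-m. The CysRS-m difference, 0.19 on the log2 scale, turned to -0.57 without scaling. PheRS-m and TyrRS-m, not called at 4 h, were called at 16 h (-0.56, adjusted p = 0.0216, and -0.74, adjusted p = 0.0131). This comparison shares its fed libraries with the 4 h one. AspRS lost its call without any 1 of the fed or 16 h libraries, and without fed replicate 1 the mitochondrial count was 5 of 12, since ArgRS-m, PheRS-m and TyrRS-m lost their calls and IleRS-m fell under the filter. Muscle (9 of 9) and midgut (3 of 8) markers were also called lower at 16 h, and 8 of 10 salivary gland markers higher. The muscle and midgut counts carry the same limit from the filter as at 4 h.

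Between 16 h and 4 h of starvation limma called no member. The median log2 fold change was 0.06 in the cytosolic set and -0.13 in the mitochondrial set. An unadjusted p under 0.05 was reached by 1 cytosolic member (IleRS) and 0 mitochondrial members, and 0.036% of tested genes were called lower and 0% higher. Libraries at 16 h lay below those at 4 h with no overlap in 7 of 15 mitochondrial and 3 of 18 cytosolic genes, beside 22.6% of tested genes. They lay above in 0 and 4, beside 22.7%. This difference between the sets was not tested. IleRS stood at 9.14 and 12.6 scaled TPM at 16 h and 7.72 and 5.66 at 4 h (log2 fold change 0.62, adjusted p = 0.260). The sign of the cytosolic median turned without scaling, to -0.31, and the median gene stood at -0.31 there too.

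In the CPSF5 mutant starved for 16 h many synthetases stood above wild type starved as long. Of the cytosolic members 10 of 18 were called higher and 0 lower, with a median log2 fold change of 0.53, and of the mitochondrial members 8 of 13 were called higher and 0 lower, with a median of 0.60, where 21.4% of tested genes were called higher and 12.1% lower. With no filter 8 and 6 were called higher, beside 11.9% of genes. Mutant libraries lay above wild-type ones with no overlap in 14 of 18 cytosolic and 13 of 15 mitochondrial genes, beside 41.2% of tested genes. The ratio of mutant to wild-type means had a median of 1.52 in the cytosolic set, from 0.861 for AspRS to 3.62 for HisRS, and of 2.04 over the 15 mitochondrial genes, from 0.796 for TrpRS-m to 4.90 for ProRS-m. The counts depended on single libraries, and fewer members of each set were called without any 1 fed, mutant or 16 h wild-type library. Without mutant replicate 1 MetRS-m fell under the filter. The share of all genes called with a library left out is not given here, so those smaller counts are not shown to exceed it.

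HisRS differed most among cytosolic members. It stood at 24.1 and 30.0 scaled TPM in the mutant, against 6.52 and 8.44 in wild type at 16 h (log2 fold change 1.73, SE 0.23, adjusted p = 0.00349). ValRS, for valine, stood at 8.98 and 12.6 in the mutant, against 3.55 and 4.15 in wild type at 16 h (log2 fold change 1.27, SE 0.18, adjusted p = 0.00419). LeuRS stood at 8.75 and 11.2 in the mutant, against 2.93 and 4.75 in wild type at 16 h (log2 fold change 1.20, SE 0.23, adjusted p = 0.0106). Mutant libraries lay above wild-type ones in these genes with no overlap.

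AlaRS stood at 13.1 and 17.7 in the mutant, against 6.19 and 6.99 in wild type at 16 h (log2 fold change 1.10, SE 0.19, adjusted p = 0.00777). TyrRS stood at 37.1 and 28.6 in the mutant, against 15.0 and 18.4 in wild type at 16 h (log2 fold change 0.93, SE 0.21, adjusted p = 0.0179). IleRS stood at 18.7 and 20.9 in the mutant, against 9.14 and 12.6 in wild type at 16 h (log2 fold change 0.82, SE 0.22, adjusted p = 0.0322), and ThrRS at 23.2 and 26.3 in the mutant, against 12.9 and 15.2 in wild type (log2 fold change 0.78, SE 0.18, adjusted p = 0.0193). With HisRS, ValRS and LeuRS, these 4 genes and MetRS, GluProRS and GlnRS, called at 0.59, 0.56 and 0.50, complete the cytosolic members called higher. HisRS, ValRS and AlaRS kept their call in every alternative that left out a library, and so did no other of the 10.

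The rest of the cytosolic set was not called. ArgRS stood at 7.76 and 8.86 in the mutant, against 6.81 and 7.15 in wild type at 16 h, and GlyRS at 8.47 and 8.95 in the mutant, against 6.99 and 7.07 in wild type. LysRS stood at 15.0 and 12.2 in the mutant, against 9.53 and 10.0 in wild type. SerRS stood at 15.6 and 22.3 in the mutant, against 12.0 and 15.3 in wild type, and AsnRS at 13.3 and 18.0 in the mutant, against 10.7 and 15.8 in wild type. CysRS and TrpRS had log2 fold changes of 0.27 and 0.26. AspRS was the cytosolic member with a negative difference, at 40.0 and 55.0 in the mutant, against 54.8 and 55.4 in wild type at 16 h (log2 fold change -0.23, SE 0.25, adjusted p = 0.520), and the sign turned to 0.66 without scaling.

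Among mitochondrial members ProRS-m, for proline, differed most, at 2.57 and 1.93 scaled TPM in the mutant, against 0.541 and 0.378 in wild type at 16 h (log2 fold change 1.15, SE 0.19, adjusted p = 0.00688). MetRS-m, for methionine, stood at 2.19 and 1.69 in the mutant, against 0.628 and 0.333 in wild type at 16 h (log2 fold change 0.99, SE 0.20, adjusted p = 0.0143). TyrRS-m stood at 5.59 and 3.86 in the mutant, against 1.94 and 1.84 in wild type at 16 h (log2 fold change 0.97, SE 0.17, adjusted p = 0.00833). In each of these the lower mutant library was above the higher wild-type one. MetRS-m averaged 1.24 in fed larvae and 0.749 at 4 h, and passed the filter on a mean of 1 through the mutant libraries, so its call is not independent of the filter.

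LeuRS-m stood at 4.35 and 2.62 in the mutant, against 1.31 and 1.19 in wild type at 16 h (log2 fold change 0.97, SE 0.21, adjusted p = 0.0158). AlaRS-m stood at 4.30 and 2.96 in the mutant, against 1.62 and 1.69 in wild type at 16 h (log2 fold change 0.78, SE 0.16, adjusted p = 0.0140). AspRS-m stood at 4.87 and 4.26 in the mutant, against 3.03 and 2.31 in wild type at 16 h (log2 fold change 0.60, SE 0.17, adjusted p = 0.0396). ArgRS-m and AsnRS-m were called as well, at 0.73 and 0.54. Of the 8 mitochondrial calls those of ProRS-m and TyrRS-m were kept whichever library was left out.

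PheRS-m, at 7.64 and 6.44 in the mutant, against 5.25 and 5.19 in wild type, and SerRS-m, at 3.92 and 2.33 in the mutant, against 2.26 and 2.13 in wild type, were not called, and neither was IleRS-m. CysRS-m stood at 2.69 and 1.93 in the mutant, against 2.52 and 1.91 in wild type at 16 h, with overlapping groups and a log2 fold change of 0.04 that turned to -0.12 with quantile normalization. TrpRS-m was the mitochondrial member with a negative difference, at 2.17 and 1.28 in the mutant, against 3.28 and 1.06 in wild type at 16 h (log2 fold change -0.14, SE 0.40, adjusted p = 0.812), and the sign turned to 0.44 without scaling. The wild-type libraries of TrpRS-m were further apart than the mutant ones.

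Midgut and salivary gland markers moved with the genotype. Of 11 midgut markers 8 passed the filter, and all 8 were called higher in the mutant. The midgut sums were 61.1 to 392 scaled TPM in the mutant and 1.01 to 6.40 in wild type at 16 h. These markers passed the filter largely through the mutant and fed libraries, so that count is not independent of the filter. Of 10 salivary gland markers 8 were lower. Of 10 fat body markers 5 were lower and 4 higher, and 1 of 9 tested muscle markers (bt) and 1 of 5 tested hemocyte markers (Hml) were higher. Over all tested genes 21.4% were called higher and 12.1% lower, so the muscle and hemocyte counts are not above the general share. The part of these tissues in the synthetase differences was not tested.

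Against fed wild type, where genotype and feeding differ together, cytosolic synthetases were lower in the mutant and most mitochondrial ones were not called. Of the cytosolic members 17 were called lower, with a median of 37.1% of fed, and 3 of 13 mitochondrial members were, with a median of 86.5% over all 15, where 22.4% of tested genes were called lower and 23% higher. With no filter the counts were 17 and 3, beside 10.5% of genes. TyrRS was the cytosolic member not called, at 37.1 and 28.6 in the mutant, against 48.8 and 48.6 in fed wild type (adjusted p = 0.0660). AlaRS-m, AspRS-m and IleRS-m were the mitochondrial members called. Mutant means exceeded fed means in 5 mitochondrial genes, up to 156% of fed for MetRS-m, and in 0 cytosolic ones. The median of all tested genes stood at 106% of fed. None of the 5 was called higher, ValRS-m among them was under the filter, and MetRS-m passed it through the mutant libraries. Of the 3 mitochondrial calls 0 were left without fed replicate 1 or without fed replicate 2, where AlaRS-m and AspRS-m lost their calls and IleRS-m fell under the filter. Without mutant replicate 2 the AlaRS-m call was left.

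**Figure D3:**
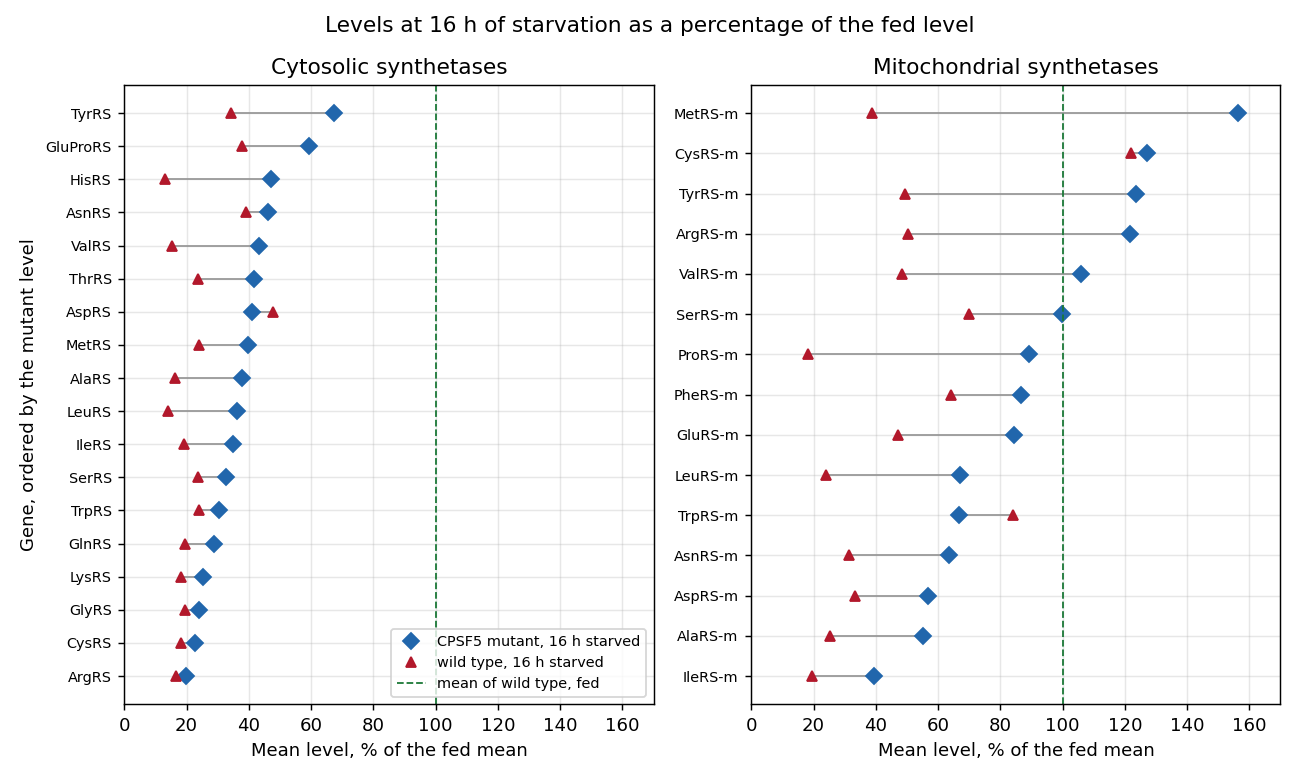
Mean level of each synthetase at 16 h of starvation in the mutant and in wild type, as a percentage of its fed wild-type mean (dashed line at 100), each from 2 libraries. Cytosolic genes of the mutant lie between 19.7% and 67.4%, mitochondrial genes of the mutant between 39.4% and 156%.

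Set against each other within a library, the cytosolic sum exceeded the mitochondrial sum by less in starved than in fed larvae. The summed cytosolic level was 6.50 and 7.78 times the mitochondrial sum at 4 h, against 13.4 and 16.6 times in fed larvae. It was 5.58 and 9.03 times in the mutant, and 7.01 and 10.1 times in wild type at 16 h. For 12 amino acids that have a synthetase of each kind under its own symbol, the median ratio of the pair was 13.7 in fed larvae, 5.91 at 4 h, 6.10 in the mutant and 7.48 in wild type at 16 h.

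The ratio was lower at 4 h than in fed larvae, with no overlap, in 10 of the 12 pairs. For cysteine it was 2.46 and 2.94 at 4 h, against 12.4 and 20.6 in fed larvae, the widest gap of the 12 by ratio of means. For leucine it was 2.25 and 2.06 at 4 h, against 4.93 and 5.70 in fed larvae. For aspartate it was 13.9 and 26.6 at 4 h, against 12.8 and 16.0 in fed larvae, and the groups overlapped, as they did for asparagine. At 16 h in wild type against fed it was lower in 8 pairs and higher in 1, aspartate (18.1 and 24.0 at 16 h, against 12.8 and 16.0 in fed larvae), and 3 overlapped. In the mutant it was lower than in wild type at 16 h in 4 pairs (arginine, aspartate, methionine and tyrosine), and 8 overlapped, and against fed it was lower in 8 and overlapped in 4. No reference share for ratios of other gene pairs was computed. For levels of single tested genes, the first group lay below the second with no overlap in 39.7% at 4 h and 41.4% at 16 h against fed. That share was 31.2% for the mutant against 16 h wild type and 37.2% against fed. The 4 pairs of the mutant against 16 h wild type are therefore not shown to exceed a general rate. These ratios share libraries between comparisons, and the difference between the sets was not tested.

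**Figure D4:**
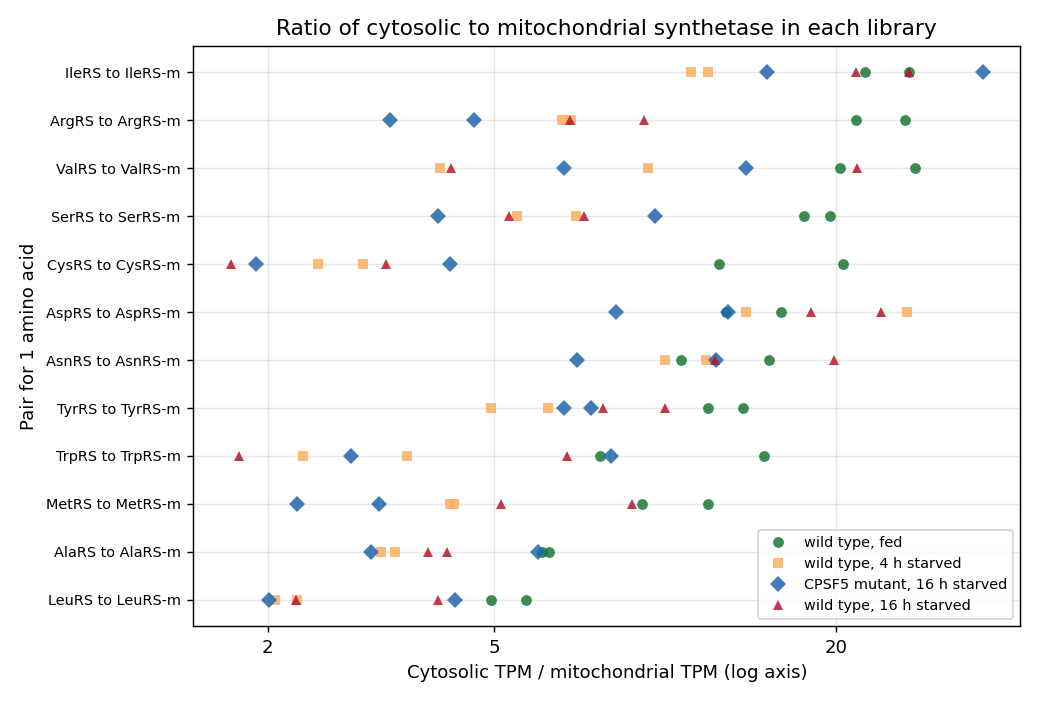
Ratio of cytosolic to mitochondrial TPM (log axis) for 12 amino acids in each of the 8 libraries. Fed points lie right of 4 h points in 10 pairs, and the aspartate and asparagine pairs overlap.

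The estimated isoform shares of some members also differed between groups. Of the 33 genes 20 have more than 1 isoform in the files, and 22 isoforms of 11 genes met the filter of the isoform test, which compares an isoform with the rest of its gene. At 4 h 5 genes had a called isoform, at 16 h 7, in the mutant against wild type at 16 h 3, and in the mutant against fed 5. Called isoforms made up 40.9%, 63.6%, 27.3% and 45.5% of the 22, beside 15.6%, 17%, 17% and 18.3% of the 5141 isoforms tested over all genes, and isoforms of a gene mirror each other. The pseudocount of 1 TPM pulls the tested ratio towards 0 as a gene's level falls. A call can therefore come with little move in share. A called isoform is higher or lower relative to the rest of its gene, and its own level can move the other way. With a pseudocount of 0.1 the genes with a called isoform numbered 4, 3, 2 and 2. Called isoforms then made up 31.8%, 27.3%, 18.2% and 18.2% of the 22, beside 6.13%, 7.02%, 10.1% and 10.1% of all isoforms tested. With a library left out they numbered 2 to 3 at 4 h, 1 to 7 at 16 h, 0 to 3 in the mutant against wild type, with 0 without mutant replicate 2, and 2 to 4 in the mutant against fed. The shares are the authors' estimates from short reads.

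GluProRS (FBgn0005674, chromosome 3R, 23952136 to 23958391, minus strand) makes a full transcript, RA, with 5142 nt of coding sequence, and a shorter one, RB, with 2988 nt that starts inside the gene and ends at the same stop codon. In the fused enzyme the glutamate part comes first and the proline part last. RB held 43.2% and 32.2% of the gene's TPM at 4 h, against 10.1% and 6.37% in fed larvae (adjusted p = 0.00736, or 0.0374 with a pseudocount of 0.1). It held 17.1% and 7.63% in the mutant and 25.9% and 28.9% in wild type at 16 h (adjusted p = 0.0380, or 0.117). The 4 h call held whichever library was left out, and that of the mutant was lost without mutant replicate 2 or any 1 of the fed or wild-type 16 h libraries. The share was high in all starved wild-type libraries, and the gene overlaps an antisense RNA gene whose reads would enter it if strand was not used.

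GlyRS (FBgn0027088, chromosome 3L, 15095142 to 15097686, plus strand) has no partner named -m and has transcripts with 2 start codons, a long coding form of 2295 nt (RB and RC) and a short one of 2037 nt (RA). In human cells the corresponding gene gives the mitochondrial and the cytosolic enzyme from such a pair of starts. RB has 1 exon over the whole gene, where RA and RC have 2, so reads of unspliced RNA would count towards the long form. Whether its share reflects a coding form or unspliced RNA was not tested. The long form held 1.22% and 2.58% of the gene at 4 h, against 17.4% and 14.9% in fed larvae. It held 11.0% and 16.2% in the mutant, against 0% and 0.911% in wild type at 16 h. In scaled TPM it stood at 0.0943 and 0.193 at 4 h, against 6.23 and 5.49 in fed larvae, and at 0.933 and 1.45 in the mutant, against 0 and 0.0645 in wild type at 16 h. The isoform RB was not called with a pseudocount of 1 (adjusted p = 0.473 at 4 h and 0.509 in the mutant against wild type), which exceeds its level in starved wild type, and was called with 0.1 (0.0330 and 0.0216).

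HisRS, LysRS and ThrRS likewise lack a partner named -m and have 2 start codons each. The HisRS transcripts whose coding sequence starts further downstream, RC and RE, held 22.2% and 17.0% at 4 h, against 7.51% and 6.79% in fed larvae, and 10.8% and 13.1% in the mutant, against 20.7% and 18.9% in wild type at 16 h. Relative to the rest of its gene, HisRS-RC was called lower in the mutant (adjusted p = 0.00961, or 0.0600 with a pseudocount of 0.1). In the same sense it was called higher at 4 h (adjusted p = 0.00577, or 0.0511). The mutant call was lost without either mutant library. The level of RC and RE together moved the other way, at 2.61 and 3.93 scaled TPM in the mutant and 1.35 and 1.60 in wild type at 16 h. It was 1.72 and 1.02 at 4 h and 3.75 and 4.40 in fed larvae. The gene overlaps Bx on the same strand. The ThrRS transcripts with the upstream start, RA and RD, held 32.3% and 27.0% in the mutant, against 19.3% and 16.5% in wild type starved as long and 12.4% and 11.5% in fed larvae. ThrRS-RA was called higher relative to the rest of its gene in the mutant than in fed larvae (adjusted p = 0.0117). That call was lost without any 1 of those libraries. Against wild type at 16 h ThrRS-RA was not called (adjusted p = 0.935). Relative to the rest of its gene, it was also called higher at 16 h against fed (adjusted p = 0.0126 with a pseudocount of 1). With a pseudocount of 0.1 it was not called (adjusted p = 0.0835). The level of RA and RD together was lower at 16 h, at 2.49 and 2.51 scaled TPM, against 7.166 and 6.998 in fed larvae. In the mutant that level was 7.49 and 7.10, which overlapped the fed range. The LysRS transcripts RB and RC, with the longer coding sequence, held 12.2% and 16.2% in the mutant, against 7.25% and 8.56% in wild type at 16 h.

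In LeuRS (FBgn0284253, chromosome 2L, 3510328 to 3514656, minus strand) the transcripts RA and RB share their coding sequence of 3546 nt and differ at the 3' end, where RB runs 150 nt further, 264 nt past the stop codon against 114. RB held 3.10% and 7.54% of the gene's TPM in the mutant, against 32.9% and 17.4% in wild type at 16 h (log2 ratio change -2.05, adjusted p = 0.0152, or 0.0437 with a pseudocount of 0.1). Against fed wild type, at 46.9% and 39.6%, the change was -2.54 (adjusted p = 0.00743). Without mutant replicate 1 the call against fed was lost. RB held 45.3% and 38.7% at 4 h, where it was not called against fed. The mutant libraries were the lowest of the 8, and the call against wild type at 16 h was lost without wild-type 16 h replicate 1 or either mutant library.

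The transcripts with the longest 3' end had both lower and higher shares in the mutant, depending on the gene, and 8 members had more than 1 annotated 3' end and shares that varied. In CysRS-m the long end held 22.4% and 32.8% in the mutant, against 34.1% and 35.5% in wild type at 16 h. In ThrRS the long-ended transcript RD, which runs 276 nt further, held 9.48% and 8.71% in the mutant, against 2.24% and 2.32% in wild type at 16 h. It was not called with a pseudocount of 1 (adjusted p = 0.858), which exceeds its level in wild type at 16 h, or with 0.1 (0.129). In ArgRS-m the long end held 22.8% and 36.1% in the mutant, against 18.1% and 16.1% in wild type, at a level too low for the test.

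IleRS isoforms RA and RD share their coding sequence, and RA keeps an intron ahead of the start codon that RD has spliced out. RD held 71.5% and 65.7% at 4 h, against 35.4% and 37.3% in fed larvae (adjusted p = 0.00967, or 0.0175 with a pseudocount of 0.1), and 51.8% and 56.1% in the mutant, against 63.2% and 63.4% in wild type at 16 h, which was not called. The 4 h call was lost without either fed library. It was the main isoform in every starved library and the lesser of RA and RD in fed ones. AsnRS-RB, AlaRS-RB and LysRS-RA were called with a pseudocount of 1 and in no comparison with 0.1. AspRS and ValRS isoforms were not called.

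**Figure D5:**
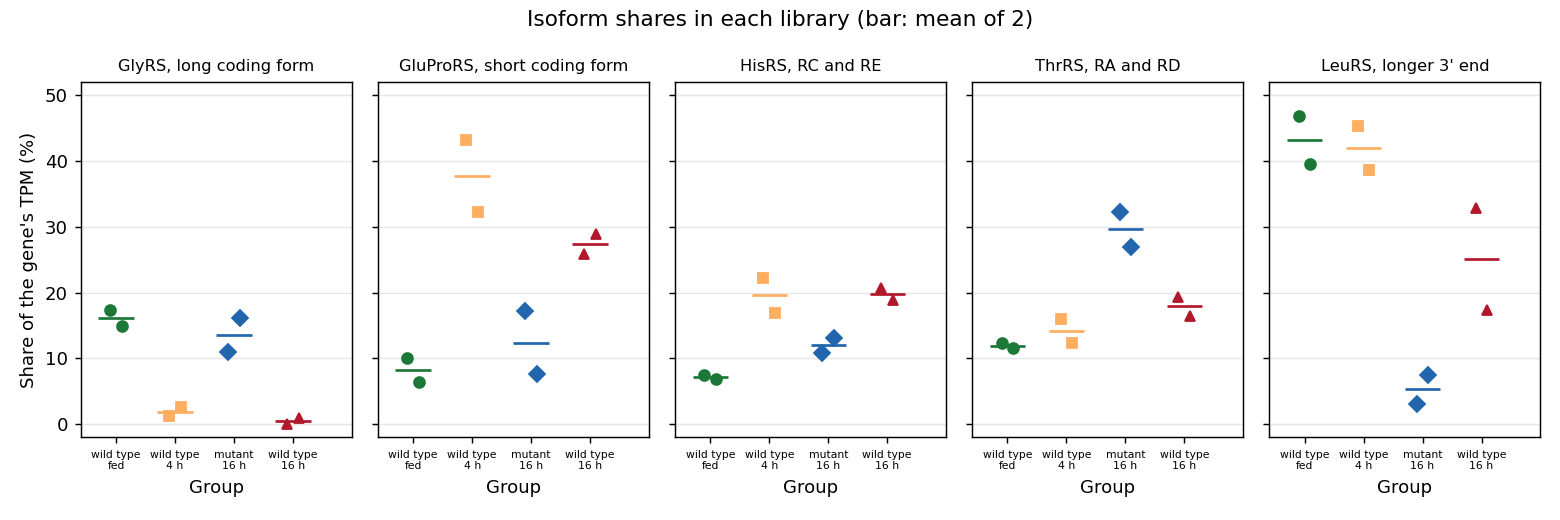
Share of a gene's TPM (%) held by the named transcripts in each of the 8 libraries, with a bar at the mean of 2. The share of the long GlyRS form is near 0 in starved wild type, and that of the short GluProRS form is higher there. The share of the longer-ended LeuRS transcript is lowest in the mutant.

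Partners of the synthetases moved with the cytosolic set on starvation. The subunits of the cytosolic phenylalanine enzyme, alpha-PheRS and beta-PheRS, were both called lower at 4 h. alpha-PheRS averaged 7.81 ± 0.301 scaled TPM at 4 h and 22.7 ± 2.23 in fed larvae, and beta-PheRS 4.92 ± 0.493 at 4 h and 22.7 ± 1.64 in fed larvae (SD, n = 2), and neither was called in the mutant against wild type at 16 h. All 3 scaffold genes, AIMP1, AIMP2 and AIMP3, were called lower at 4 h and 16 h, and AIMP2 was called higher in the mutant, at 18.0 ± 5.52 in the mutant and 10.3 ± 0.316 in wild type at 16 h (log2 fold change 0.72, adjusted p = 0.0493). Over all tested genes 26.6% were called lower at 4 h, 27.7% lower at 16 h and 21.4% higher in the mutant.

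Mitochondrial glutamine transfer RNA is made by the amidotransferase of GatA, GatB and GatC from a tRNA charged with glutamate. With Slimp, a synthetase-like protein of mitochondria, 2 of these 4 genes were called lower at 4 h, GatA (log2 fold change -0.79, adjusted p = 0.0165) and GatC (log2 fold change -0.94, adjusted p = 0.00133). In the mutant against wild type at 16 h GatA and GatB were called higher and Slimp was called lower, at 1.91 ± 0.189 in the mutant and 4.30 ± 1.26 in wild type (log2 fold change -0.85, adjusted p = 0.0191). Slimp is the exception in direction among these mitochondrial genes. These counts stand beside 26.6% of tested genes called lower at 4 h, and 21.4% called higher and 12.1% lower in the mutant.

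Genes that use charged transfer RNA did not all follow the synthetases. All 4 mitochondrial elongation factors were called lower at 4 h, led by mEFG1, at 0.659 ± 0.278 scaled TPM at 4 h and 21.3 ± 0.522 in fed larvae (log2 fold change -3.76, adjusted p = 6.01e-05). Of 73 mitochondrial ribosomal proteins 71 were called lower at 4 h and 71 at 16 h, with medians of -1.83 and -1.97, and 46 were called higher in the mutant. Of 7 cytosolic elongation factors 1 was called lower at 4 h, eEF1delta (log2 fold change -2.46, adjusted p = 0.000361), and of 88 tested cytosolic ribosomal proteins 6 were, with a median of -0.13, while 57 were called higher in the mutant against wild type at 16 h. Over all tested genes 26.6% were called lower at 4 h, 27.7% lower at 16 h and 21.4% higher in the mutant against wild type. The cytosolic counts at 4 h are below that share. The median of the mitochondrial synthetases at 4 h, -0.52, lay between those of the mitochondrial and the cytosolic ribosomal proteins, and these differences were not tested.

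Of 9 genes of transfer RNA processing and export 7 were called lower at 4 h and 8 at 16 h, led by La, which binds new transfer RNA precursors, at 6.44 ± 1.92 scaled TPM at 4 h and 165 ± 5.32 in fed larvae (log2 fold change -4.51, adjusted p = 5.41e-05). Of 11 genes of uncharged transfer RNA sensing and the ATF4 axis 4 were called lower and 1 higher at 4 h, to be read against the 26.6% of tested genes called lower and 21.1% called higher. The kinase Gcn2, which senses uncharged transfer RNA, was not called (log2 fold change -0.07, adjusted p = 0.765), nor was crc, the fly ATF4 (log2 fold change 0.28, adjusted p = 0.277), which was called higher in the mutant against wild type at 16 h (log2 fold change 0.64, adjusted p = 0.0478). Thor, the fly 4E-BP that holds back cap-dependent translation, was the gene called higher at 4 h (log2 fold change 5.25, adjusted p = 0.000378) and was called lower in the mutant (log2 fold change -1.91, adjusted p = 0.0268).

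Of 6 growth regulators Myc, a transcription factor that promotes growth, was called lower at 4 h, at 2.54 ± 1.35 scaled TPM at 4 h and 18.4 ± 0.318 in fed larvae (log2 fold change -2.51, adjusted p = 0.000661), and its antagonist Mnt was called higher (log2 fold change 1.19, adjusted p = 0.00174). In the mutant against wild type at 16 h Mnt (log2 fold change -0.80, adjusted p = 0.0135) and foxo (log2 fold change -0.96, adjusted p = 0.0148) were called lower and Myc was not called (log2 fold change 0.60, adjusted p = 0.130). Of 14 genes of amino acid synthesis 5 were called higher at 4 h, among them aay, of serine synthesis (log2 fold change 4.85, adjusted p = 0.00128), and Gs1, a glutamine synthetase (log2 fold change 3.43, adjusted p = 0.000736), and 2 were called lower, led by Gdh, glutamate dehydrogenase (log2 fold change -2.99, adjusted p = 0.00169). These counts too stand beside 26.6% of tested genes called lower and 21.1% called higher at 4 h.

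Positions in the genome bear on how far single values can be read. TyrRS and GluRS-m lie 171 bp apart on the same strand of chromosome 3L. Genes on the opposite strand overlap 5 cytosolic and 11 mitochondrial members. The library kit marks strand, but whether counting used it is not given, so reads of these members and their antisense partners may not have been told apart, and the values of AspRS, CysRS, GlnRS, GluProRS, SerRS and most mitochondrial members are uncertain for that reason.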

How the data were processed

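Total RNA of larval fat body was sequenced in 8 libraries. Trizol RNA was checked on a Bioanalyzer and turned into libraries with a stranded TruSeq kit and Ribo-Zero Gold depletion, per the labels' protocols. STAR 2.5.3 and the genome build BDGP6 are named per the submitters' processing notes. Not given in the sources used here were the quantifier, the annotation release, any trimming and the use of strand in counting. For each gene and each transcript, the values the authors deposited are TPM, with a column per library and nothing pooled. Depth cannot be had from TPM, so no counting interval was computed.

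From these values the following was computed. Symbols, positions and transcript structures came from a later Ensembl annotation of BDGP6. Of the gene identifiers 17249 matched directly, 123 through the sum of their isoforms and 99 not at all, and all 33 members were found. Median-of-ratios factors came from 5393 genes at 1 TPM or more in all libraries. Deposited TPM were turned into log2(scaled TPM + 1) and tested with limma 3.58.1 in R 4.3.3, with a mean per group over all 8 libraries, a trend and Benjamini-Hochberg adjustment across 8332 genes, two-sided. Residual degrees of freedom were 4, with a median of 2.16 added by moderation. An exact permutation test of 2 libraries against 2 cannot give a p below 0.333. For isoform use limma tested log2 of isoform over remaining TPM, each + 1, for shares of 5% to 95% in genes at 5 TPM or more (5141 isoforms of 1948 genes). The fit was tested on simulated data.

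The members, as a group of genes to report on, and the gene lists were chosen with earlier results of these data known, while the naming rule itself uses no values. Genes given in full were the 8 highest of each set and those that differed in direction from their set. LeuRS, ValRS, AlaRS, ArgRS, GlyRS, ProRS-m, MetRS-m, GluRS-m and ValRS-m, and the list genes apolpp, Gcn2, crc and Myc where not called, were added after their values were seen. Alternatives were other scalings, pseudocounts, no filter, no trend, only the groups compared and each library left out. No promoter, protein or transcript sequence is shown.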

Additional observations from a re-analysis of the deposited data

How the results depend on the processing

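No paired analysis was possible because the labels carry no replicate numbers. The 18 cytosolic calls at 4 h and at 16 h against fed were also 18 under every scaling, pseudocount, filter and trend tried and with only the groups compared, and ranged from 17 to 18 with a library left out. Mitochondrial calls with a library left out ranged from 3 to 8 at 4 h, from 5 to 9 at 16 h, and from 0 to 3 for the mutant against fed, where cytosolic calls ranged from 14 to 17. In the mutant against wild type at 16 h the cytosolic count of 10 higher became 17 without scaling (beside 46.2% of genes). It became 6 with quantile normalization (18.1%) and 5 with only the groups compared (16.3%). The mitochondrial count of 8 became 2 of 12 with only the groups compared (16.3%). Both counts were smaller whichever library was left out, and these smaller counts are not shown to exceed a general share. Genes with a called isoform ranged, with a library left out, from 2 to 3 at 4 h, 1 to 7 at 16 h, 0 to 3 in the mutant against wild type and 2 to 4 in the mutant against fed. With a pseudocount of 0.1 they numbered 3 at 16 h and 2 in the mutant against fed. The ThrRS-RD change at 16 h against fed turned to -0.30 with that pseudocount. The causes were not tested. Unknown depth limits the low mitochondrial levels most.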
